A study of Mus musculus with 2 samples.

Results

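Type I interferon response genes are described here across the cells of mouse tumors. The set was a list of 35 gene symbols, and its members were found by symbol among the 27998 genes of the count matrices. Of the 35, 34 were present, and the same 34 had a row in the 14654-gene table of raw counts. Mx2 was not analysed here. The rule used no measured value.

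The tumors were grown from YUMMER1.7, an immunogenic mouse melanoma line, for 11 days under the skin of male C57BL/6 mice (8 weeks of age) of either of 2 genotypes, wild type (WT) or Siah2-/-. The Siah2 product is a ubiquitin ligase of the RING type, and the injected tumor cells did not carry the host genotype. Live CD45-positive leukocytes were sorted from the tumors, live CD45-negative cells were added at 1 for every 5 of them, and 1 droplet library was made per genotype by the 3′ end chemistry of 10x Genomics. Each transcript molecule was counted as a unique molecular identifier (UMI). Genotype, tumor pool, library and sequencing lane cannot be told apart, so no test across samples was possible. Every interval given is a 95% interval for counting error only, and takes no account of the spread between cells, animals or libraries.

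The WT library held 4512 cells with a median of 11439.5 UMIs, and the other 5563 cells with a median of 8700.0. The shallowest WT cell had 6670 UMIs and the shallowest cell of the other library 4896. The 2 libraries shared 34 cell barcodes. Siah2 was counted in both, with 660 and 505 UMIs, in tags that need not lie in the deleted part, so the counts do not check the genotype. The second library is therefore called the library labelled Siah2-/-, and where 2 values are given, WT comes first.

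Type I interferons (interferon alpha and beta) are secreted proteins that bind the receptor IFNAR1/IFNAR2 on nearly every cell. The receptor's kinases activate STAT2, which joins IRF9 in the complex ISGF3, and ISGF3 binds a DNA element called the interferon-stimulated response element in front of its target genes. The targets restrict viruses by many routes, and in tumors they accompany antigen presentation and T cell recruitment. Many of them also respond to interferon gamma.

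The members fall into families. Ifit1, Ifit2, Ifit3, Ifit3b and Ifit1bl1 encode RNA-binding proteins that block viral translation, and all lie between 34550694 and 34650009 on chromosome 19 (GRCm38, GENCODE M21 gene models). Oas1a, Oas2 and Oas3 belong to the oligoadenylate synthetases, whose product switches on RNase L, and Oasl1 and Oasl2 are their relatives. Together these 5 lie between 114896936 and 120907521 on chromosome 5. Ddx58 (RIG-I), Ifih1 (MDA5) and Dhx58 (LGP2) sense viral RNA. Irf7, Irf9 and Stat2 are transcription factors of the pathway. Isg15 is a ubiquitin-like modifier, Usp18 removes it and restrains the receptor, and Herc6 attaches it. Rsad2 (viperin) and its neighbour Cmpk2 act on nucleotides, Mx1 is an antiviral GTPase, Isg20 an exonuclease, Bst2 (tetherin) holds virions at the membrane, and Zbp1 senses Z-form nucleic acid.

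The proximal promoters of 4 members are shown because the element named above is where ISGF3 binds, and the choice of members did not use it. Sequences are from RefSeq for build GRCm38.p6 and run 5′ to 3′ up to the base before the transcription start. Capitals mark matches to a core of the response element, GAAA and a second GAAA with any 2 bases between them, read on either strand (on the printed strand TTTC and TTTC when the match is on the other). Matches that overlap run together in the capitals. Isg15 lies on the minus strand at chr4:156200819-156201068, Ifit3 on the plus strand at chr19:34583279-34583528, Bst2 on the minus strand at chr8:71537473-71537722 and Slfn4 on the plus strand at chr11:83174936-83175185.
Isg15: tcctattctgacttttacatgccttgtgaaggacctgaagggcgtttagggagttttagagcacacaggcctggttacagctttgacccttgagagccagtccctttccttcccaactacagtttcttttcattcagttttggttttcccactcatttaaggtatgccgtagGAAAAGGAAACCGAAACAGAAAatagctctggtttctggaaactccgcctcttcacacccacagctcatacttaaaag
Ifit3: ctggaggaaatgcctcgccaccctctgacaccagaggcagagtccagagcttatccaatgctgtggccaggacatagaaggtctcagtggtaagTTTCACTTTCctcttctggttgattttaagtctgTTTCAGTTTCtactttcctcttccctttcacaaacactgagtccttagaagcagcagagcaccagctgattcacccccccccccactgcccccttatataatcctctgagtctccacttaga
Bst2: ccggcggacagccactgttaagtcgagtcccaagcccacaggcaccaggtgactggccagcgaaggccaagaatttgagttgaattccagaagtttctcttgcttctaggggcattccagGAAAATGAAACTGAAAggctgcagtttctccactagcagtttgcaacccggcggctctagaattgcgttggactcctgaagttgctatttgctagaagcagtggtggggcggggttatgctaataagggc
Slfn4: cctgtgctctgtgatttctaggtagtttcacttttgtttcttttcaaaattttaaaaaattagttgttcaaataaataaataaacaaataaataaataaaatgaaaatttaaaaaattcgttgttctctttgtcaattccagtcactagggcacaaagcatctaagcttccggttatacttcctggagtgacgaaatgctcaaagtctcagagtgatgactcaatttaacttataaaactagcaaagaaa
Isg15 holds 3 overlapping matches, Ifit3 and Bst2 2 each, and Slfn4 none. The promoter table held 27 of the 35 members, and 15 of these 27 (55.6%) had a match in a window from 250 bases before to 50 after a start. Over all 27025 genes of the table the share was 3.99%. Oas2, Mx1, Mx2, Usp18, Dhx58, Rtp4, Zbp1 and Parp14 were not in the table. A match is a description of the letters and not a measured site.

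Cells were assigned to classes by marker genes. Macrophages (Csf1r, C1q genes and Adgre1) made up 1757 of the WT cells and 1602 of the others. Cells led by Chil3, Vcan, Hp and Ccr2, called monocyte-like, numbered 141 and 461. Dendritic cells (DC) numbered 67 and 101, T cells 743 and 1820, and NK cells 408 and 663. CD45-negative cells with collagen transcripts numbered 728 and 133. These CD45-negative cells had Col1a2 in every WT cell and 99.2% of the others, and Ptprc, which encodes CD45, in 8.52% and 18.0% of cells. The melanocyte genes Tyr and Sox10 had 0 UMIs in them, Mlana had 1 and 0, and Hmga2 was detected in 86.0% and 83.5%. They are therefore named by their markers and not as melanoma cells or fibroblasts. Barcodes with both macrophage and lymphocyte markers (315 and 321) and cells that met no gate (333 and 443) are not described further.

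Levels are given as UMIs per 1000000 UMIs of the class (CPM). Tags come from the 3′ end and each molecule is counted once, so values were not divided by transcript length. Summed over the 34 members, monocyte-like cells were highest in both libraries, with 115 UMIs per 10000 (interval 113 to 117) in WT, against 113 (111 to 114) in the library labelled Siah2-/-. Macrophages followed with 67.2 (66.9 to 67.6) and 62.6 (62.2 to 62.9). CD45-negative collagen-positive cells had 47.0 (46.7 to 47.4) and 68.4 (67.5 to 69.3). DC had 34.2 (32.8 to 35.5) and 44.6 (43.3 to 46.0), T cells 33.6 (33.21 to 34.01) and 41.0 (40.7 to 41.3), and NK cells were lowest with 25.8 (25.3 to 26.3) and 28.9 (28.5 to 29.3). In WT the intervals of DC and T cells overlapped. Macrophages came second in WT, whereas the CD45-negative cells stood above them in the other library.

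Most single members were also highest in monocyte-like cells, 30 of 34 in WT, against 27 in the library labelled Siah2-/-. The lowest class varied more, with the CD45-negative cells lowest for 16 and 12 members and NK cells for 11 and 14. Isg15 reached 2439 and 2570 CPM in monocyte-like cells, against 1143 and 1133 CPM in macrophages and 344 and 384 CPM in NK cells. Irf7 had 1217 and 1122 CPM in monocyte-like cells, 881 and 840 CPM in macrophages, and was lowest in CD45-negative cells at 170 and 226 CPM. Rsad2 had 474 and 510 CPM in monocyte-like cells and 182 and 190 CPM in macrophages.

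**Figure D1:**
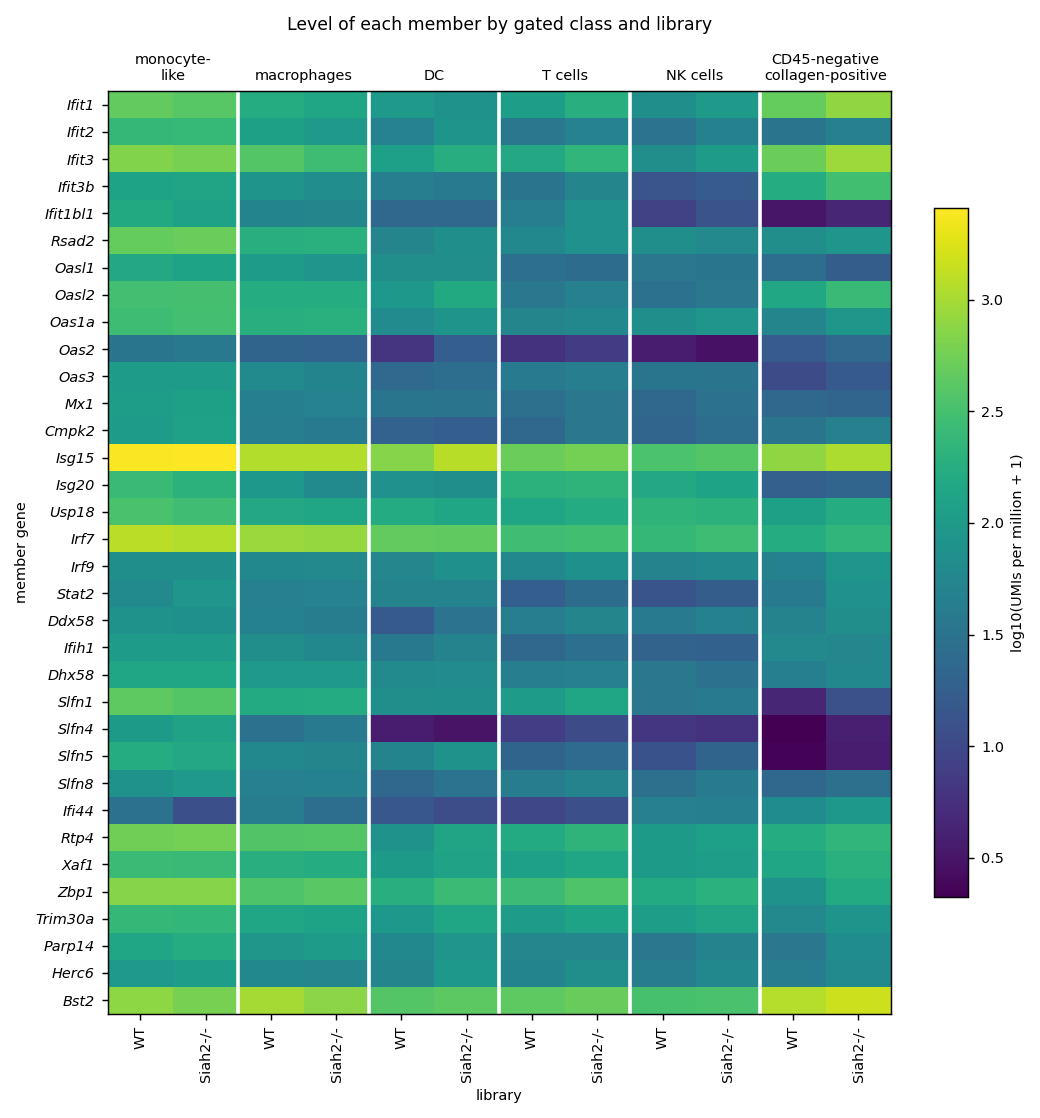
Level of each of the 34 members (rows) in 6 gated classes, WT beside Siah2-/-, coloured by log10(CPM + 1). Isg15, Irf7 and Bst2 are bright in most columns, monocyte-like cells are the brightest columns for most rows, and the Schlafen genes Slfn1, Slfn4 and Slfn5 are dark in the CD45-negative cells.

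A few members were highest elsewhere. Bst2, Ifi44, Ifit1 and Ifit3b were highest in the CD45-negative cells in both libraries, joined in the library labelled Siah2-/- by Ifit3 and Irf9. Bst2 had 1163 and 1498 CPM in the CD45-negative cells against 991 and 754 CPM in macrophages. Ifi44 had 66.8 and 93.1 CPM in the CD45-negative cells and was second in NK cells at 46.2 and 44.6 CPM. Isg20 was highest in T cells in the library labelled Siah2-/-, at 212 CPM against 199.6 CPM in monocyte-like cells, and the order was the reverse in WT, at 199.9 CPM against 252 CPM. Macrophages had 91.6 and 61.9 CPM of it, and the CD45-negative cells 17.5 and 20.3 CPM. Among T cells it was highest in Foxp3-positive Tregs, at 379 and 323 CPM.

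The Schlafen genes, regulators of growth and of RNA in leukocytes, ranged widely between classes. Slfn5 had 170 and 154 CPM in monocyte-like cells and 1.28 and 2.64 CPM in the CD45-negative cells. Slfn1 had 446 and 388 CPM against 3.56 and 11.2 CPM, and Slfn4 100 and 126 CPM against 1.12 and 2.94 CPM. Slfn8 differed less, with 78.8 and 97.5 CPM against 22.2 and 27.9 CPM.

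Free RNA in the suspension also carried the members. Barcodes with 1 to 100 UMIs, taken as empty droplets, held 49.8 and 48.2 member UMIs per 10000, and Isg15 had 824 and 732 CPM in them. In NK cells 30 of 34 members were at or under their level in empty droplets in WT, against 26 in the library labelled Siah2-/-, and in T cells 27 and 21. The counts were 27 and 21 in DC, 24 and 17 in the CD45-negative cells, 8 and 9 in macrophages and 2 and 2 in monocyte-like cells. Isg15 in the CD45-negative cells lay under its empty-droplet level in WT (791 CPM) and above it in the other library (1082 CPM). With 5% of each class's UMIs taken as free RNA and subtracted, the log2 ratio of the summed level between the libraries was 0.31 in T cells and 0.57 in the CD45-negative cells, beside 0.29 and 0.54 without it. The same 5% was taken in both libraries, so a share of free RNA that differs between them was not tested.

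Within macrophages, a state was assigned from 3 marker lists and a cycling list, and 4 states are described here. Of these, cells without a state had the highest summed level, 89.0 (88.2 to 89.8) and 81.6 (80.8 to 82.5) per 10000, and were highest for 32 and 29 of 34 members. Cells with Mgl2 and MHC class II genes had 70.0 (69.3 to 70.8) and 65.3 (64.5 to 66.1). Resident-like cells (Folr2, Fcrls, Lyve1) had 57.3 (56.7 to 57.9) and 57.9 (56.9 to 59.0). Cycling macrophages had 50.8 (50.1 to 51.6) and 61.6 (60.5 to 62.8). The 4 states held 1675 of the 1757 WT macrophages and 965 of the 1602 others, so values of macrophages as a whole also rest on cells outside them. The states differ in number between the libraries, with 510 and 140 resident-like cells, and 739 and 641 macrophages lay near a threshold between states. Bst2 went against this order in both libraries, with resident-like cells highest at 1147 and 981 CPM.

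The level varied widely from cell to cell. In monocyte-like cells the summed level had a 10th percentile of 19.7, a median of 91.1 and a 90th percentile of 224 per 10000 in WT, and 20.4, 80.2 and 257 in the library labelled Siah2-/-. In macrophages the same values were 15.4, 50.1 and 150, and 19.8, 45.0 and 133. The tenth of cells with the highest level held 27.3% and 28.8% of the member UMIs in macrophages and 39.8% and 37.2% in NK cells. In the CD45-negative cells that share was 40.3% and 33.2%, and the highest WT cell reached 1088 per 10000. A small part of the cells thus held a large part of the member UMIs there.

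**Figure D2:**
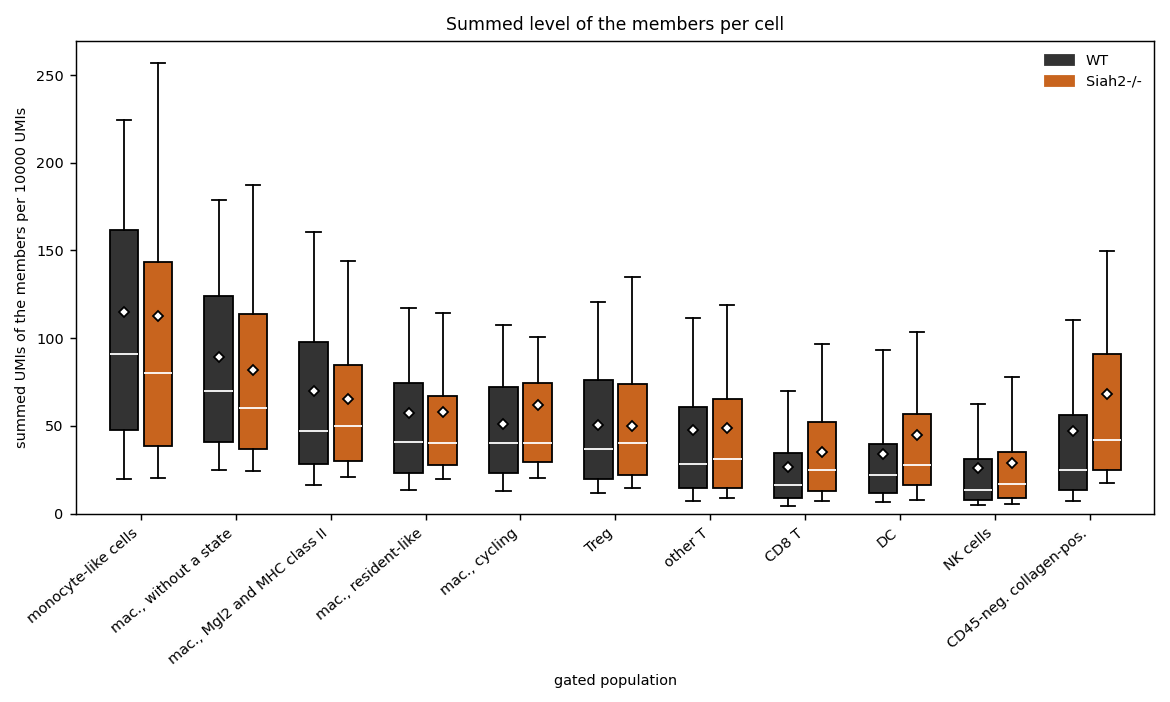
Summed UMIs of the 34 members per 10000 UMIs of a cell, by gated population and library. Boxes span the quartiles with the median in white, whiskers the 10th and 90th percentiles, and diamonds mark the summed level of the population. Monocyte-like cells are highest in both libraries, and CD8 T cells and CD45-negative collagen-positive cells are higher in Siah2-/-.

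Members varied together across cells. With each cell thinned to 2000 UMIs, the Pearson correlation of Isg15 with the sum of the other members over macrophages was 0.70 in WT (1757 cells), against 0.65 in the library labelled Siah2-/- (1602 cells). For Ifit3 it was 0.58 and 0.58, and for Irf9 0.08 and 0.08. The median over the members was 0.30 in both. These values describe cells that share a library, and in counts this sparse the weak value of Irf9 is no finding.

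The libraries were then compared class by class. A member was called higher or lower when its CPM differed past 1.5-fold, among genes with at least 50 UMIs over both libraries. In the cells analysed, the share of all genes past the same fold is given beside each count of members. Counts at other settings have no such share beside them and are not read against a background. With 1 library on each side these are descriptions of 2 libraries.

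In macrophages all 34 members could be compared. None was higher past 1.5-fold, against 7.5% of 10541 genes, and 1 was lower, Ifi44, against 6.62%. The median log2 ratio of the members was -0.07, beside -0.04 over all genes. Ifi44 had 40.2 CPM in WT, against 26.5 CPM in the library labelled Siah2-/-, a log2 ratio of -0.60 (-0.76 to -0.44). Isg20 followed with a log2 ratio of -0.56 (-0.67 to -0.46), then Ifit3 with 379 and 284 CPM and -0.42 (-0.47 to -0.37). Bst2 had 991 and 754 CPM, -0.39 (-0.43 to -0.36). The 4 IFIT genes Ifit1, Ifit2, Ifit3 and Ifit3b lay between -0.42 and -0.28, each beyond counting error. The highest ratios were those of Slfn4 (29.0 and 39.3 CPM, 0.44, interval 0.28 to 0.60), Zbp1 (364 and 418 CPM, 0.20, 0.16 to 0.25) and Parp14, an ADP-ribosyltransferase (90.9 and 103 CPM, 0.18, 0.09 to 0.27). In empty droplets Slfn4 had 37.1 and 64.6 CPM and Isg20 155.9 and 112.8 CPM, above their levels in macrophages in both libraries. The most abundant members besides Bst2 were Isg15 at 1143 and 1133 CPM, with -0.01 (-0.04 to 0.01), and Irf7 at 881 and 840 CPM, with -0.07 (-0.10 to -0.04). In all, 15 members were lower beyond counting error, where 26.8% of all genes were, and 4 higher, where 18.2% were. The macrophage markers came to 196 and 154 UMIs per 10000 in macrophages, the T cell markers to 0.31 and 0.65, the neutrophil markers to 0.60 and 1.17 and the cycling markers to 2.82 and 1.66, and their part was not tested.

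By role, the macrophage values of the remaining members were as follows. The RNA sensors Ddx58 (47.6 and 40.4 CPM) and Ifih1 (69.1 and 57.5 CPM) were lower beyond counting error, with log2 ratios of -0.24 and -0.26, and Dhx58 (93.7 and 98.7 CPM) lay within it at 0.07. Of the synthetase genes, Oas3 (61.5 and 51.5 CPM, -0.26) and Oasl1 (108 and 84.7 CPM, -0.35) were lower beyond counting error and Oas1a (181 and 192 CPM, 0.08) higher, while Oas2 (19.8 and 18.5 CPM) and Oasl2 (173 and 171 CPM) lay within it. Usp18 had 154 and 139 CPM (-0.15), and Trim30a, a TRIM family protein, 138 and 127 CPM (-0.12). The transcription factor genes Stat2 (45.1 and 48.5 CPM) and Irf9 (57.6 and 59.4 CPM) lay within counting error. So did Mx1 (44.1 and 48.0 CPM), Cmpk2 (42.5 and 39.8 CPM), Rsad2 (182 and 190 CPM), Herc6 (56.8 and 56.1 CPM), Xaf1, which encodes a partner of XIAP (179 and 171 CPM), Rtp4, which encodes a receptor transport protein (370 and 382 CPM), Slfn1 (163 and 166 CPM), Slfn8 (46.3 and 47.1 CPM) and Ifit1bl1 (50.8 and 53.8 CPM). Slfn5 was lower, at 57.0 and 51.9 CPM.

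The 4 macrophage states were then compared between the libraries. In cells with Mgl2 and MHC class II genes, Isg20 (-0.80, interval -1.02 to -0.59) and Ifi44 (-0.78, -1.15 to -0.42) were the 2 members lower past 1.5-fold, where 3.83% of all genes were, and none was higher, where 6.24% were. Isg20 lay under its empty-droplet levels of 155.9 and 112.8 CPM in both libraries. Cells without a state had none past it, where 6.35% of genes were higher and 3.18% lower. Resident-like cells had Slfn4 higher (14.6 and 25.7 CPM, 0.81, interval 0.29 to 1.32), where 7.17% of genes were, and none lower, where 7.02% were. Slfn4 lay under its empty-droplet levels of 37.1 and 64.6 CPM there in both libraries. In pooled UMIs cycling macrophages (216 and 96 cells) ran the other way, with a median of 0.28. In them 5 members were higher past the fold, where 6.35% of genes were, Rsad2, Mx1, Ifit1bl1, Slfn8 and Slfn5. None was lower, where 4.72% were. Rsad2 had 107 and 234 CPM there, a log2 ratio of 1.13 (0.92 to 1.33). Per cell, their median summed level was 40.3 and 40.2, so the pooled difference was not seen in the median cell. The 10th percentiles were 13.0 and 20.2 and the 90th percentiles 107.6 and 100.4. The 10% of these cells with the highest level held 26.2% and 31.7% of the member UMIs. Bst2 was lower in each of the 4 states, with log2 ratios from -0.27 to -0.21.

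In monocyte-like cells Ifi44 alone was lower past 1.5-fold, where 6.32% of 5850 genes were, with 28.7 and 10.9 CPM and a log2 ratio of -1.40 (-2.13 to -0.66), resting on 32 and 35 UMIs and under its empty-droplet level in both libraries. None was higher, where 9.57% of genes were. The next lowest were Ifit1bl1 (-0.36, interval -0.63 to -0.10) and Bst2 (775 and 605 CPM, -0.36, -0.47 to -0.24). The highest were Stat2 (60.9 and 88.2 CPM, 0.53, 0.15 to 0.94), Slfn4 (0.33, 0.02 to 0.64) and Slfn8 (0.31, -0.04 to 0.66). The median was 0.02, beside -0.05 over all genes. Isg15, Irf7 and, in WT, Bst2 had the highest levels, with Zbp1 at 701 and 711 CPM. Over all barcodes with at least 1000 UMIs, 732 and 678 monocyte-like cells, the summed level was 132 and 113 per 10000, a log2 ratio of -0.23 (-0.25 to -0.21). The neutrophil markers came to 0.59 and 2.83 UMIs per 10000 in monocyte-like cells and the DC markers to 0.21 and 0.88, and their part was not tested.

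In T cells the members were mostly higher in the library labelled Siah2-/-. Of 34, 6 were higher past 1.5-fold, where 8.66% of 10022 genes were, and 0 were lower, where 7.16% were. The median was 0.32, beside -0.02 over all genes, and 33 of 34 members were above 0. Ifit1bl1 had 43.5 and 75.3 CPM (0.79, interval 0.62 to 0.96), Ifit3b 31.6 and 53.1 CPM (0.75, 0.55 to 0.95), Cmpk2 21.8 and 35.8 CPM (0.72, 0.47 to 0.97) and Ifit1 113 and 183 CPM (0.69, 0.58 to 0.80). Stat2 and Ifit3 were the other two. Of the 6, Ifit3, Ifit3b and Stat2 lay under their levels in empty droplets in both libraries, 2 did in WT only, and Ifit1bl1 lay above in both. The lowest were Oasl1 (-0.15, -0.39 to 0.09), Parp14 (0.02, -0.14 to 0.18) and Irf7 (0.05, -0.02 to 0.12). The most abundant members were Isg15 (521 and 589 CPM), Bst2 (442 and 486 CPM) and Zbp1 in the library labelled Siah2-/- (363 CPM), with Irf7 (290 CPM) ahead of Zbp1 in WT.

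This difference depended on the depth of the cells and on the kind of T cell. CD8 T cells made up 486 of 743 T cells in WT, against 939 of 1820 in the library labelled Siah2-/-, Tregs 90 and 114, and T cells that were neither 167 and 767. With the 3 kinds weighted equally, an alternative chosen after seeing the data, the log2 ratio of the summed level was 0.10. T cells under 5000 UMIs had more member UMIs per 10000 than those over 5000 in both libraries, and the WT cells analysed began at 6670 UMIs. Over all barcodes with at least 1000 UMIs, T cells had 47.2 and 46.4 per 10000, a log2 ratio of -0.02 (-0.04 to -0.01), against 0.29 (0.27 to 0.31) in the cells analysed. The number of members higher past 1.5-fold was 1 over these barcodes, and also 1 with the same lowest UMI count in both libraries, against 6 in the cells analysed. No share of all genes is given beside the counts at these other settings. CD8 T cells taken alone were higher in the library labelled Siah2-/- in each of 4 depth bins, with log2 ratios of 0.35, 0.10, 0.37 and 0.20 from the shallowest to the deepest. Over all these barcodes they had 35.2 and 38.7 per 10000, a log2 ratio of 0.13 (0.11 to 0.15). In the cells analysed they had 26.6 (26.2 to 27.0) and 34.9 (34.6 to 35.3) per 10000, and Ifit1 had 73.4 and 151 CPM in them (1.05, interval 0.89 to 1.21). Tregs had 50.5 and 49.9, a log2 ratio of -0.02 (-0.07 to 0.04), and over all barcodes with at least 1000 UMIs 66.7 and 56.6, a log2 ratio of -0.24 (-0.27 to -0.20). T cells that were neither CD8-positive nor Foxp3-positive had 47.5 and 49.0, a log2 ratio of 0.05 (0.01 to 0.08). This direction turned once every barcode with at least 1000 UMIs was counted, with 59.1 and 53.2 and a log2 ratio of -0.15 (-0.17 to -0.13). The cycling markers came to 11.6 UMIs per 10000 in CD8 T cells of WT and 6.13 in those of the other library, and the neutrophil markers to 0.05 and 0.55. The macrophage markers came to 2.44 and 3.03 in T cells as a whole. The part of these markers was not tested.

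**Figure D3:**
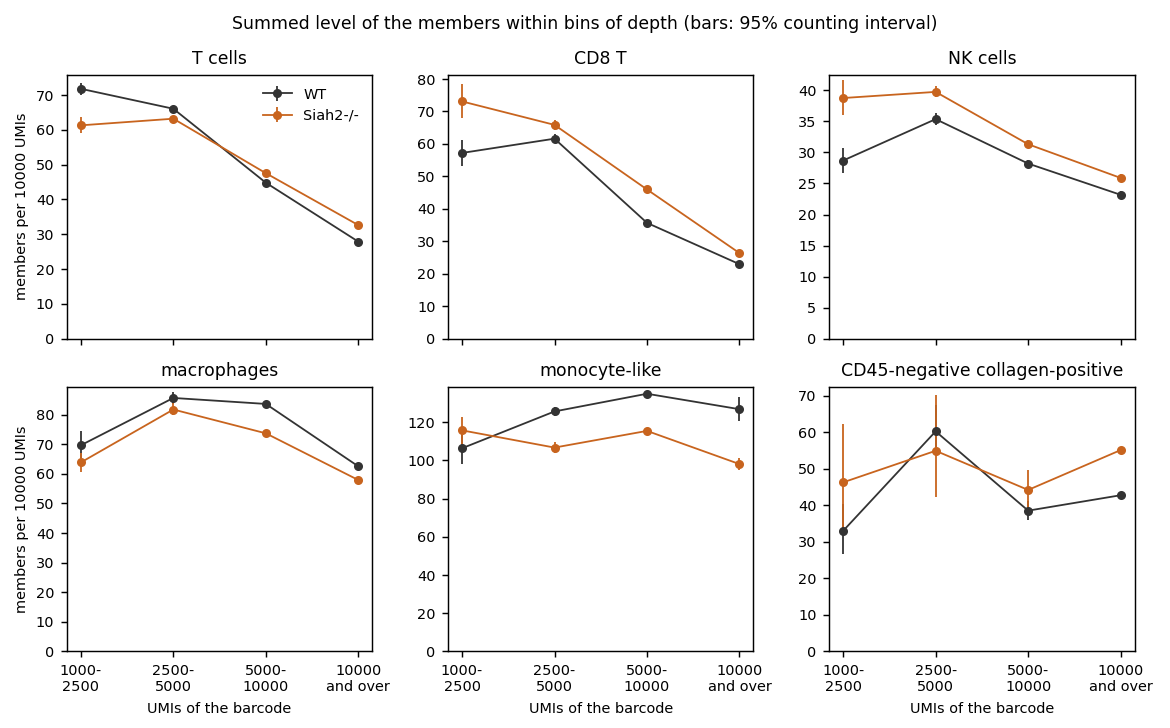
Summed UMIs of the members per 10000 UMIs (y axis) within 4 bins of UMIs per barcode (x axis), over all barcodes with at least 1000 UMIs; bars are 95% counting intervals, and many are smaller than the points. In CD8 T and NK cells Siah2-/- lies above WT in each bin, in T cells as a whole the lines cross, and in macrophages WT lies above in each bin.

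In NK cells 33 members could be compared, all but Oas2. Slfn5 (11.8 and 19.8 CPM, 0.75, interval 0.26 to 1.25), Ifit1bl1 (7.54 and 11.98 CPM, 0.67, 0.05 to 1.32) and Ifit2 (30.9 and 47.2 CPM, 0.61, 0.31 to 0.92) were higher past 1.5-fold, where 9.25% of 8268 genes were. None was lower, where 3.06% were. All 3 called members lay under their levels in empty droplets in both libraries, 27.2 and 20.0 CPM for Slfn5, 40.6 and 49.9 CPM for Ifit1bl1 and 60.4 and 64.5 CPM for Ifit2. Over all barcodes with at least 1000 UMIs 1 member was higher past the fold, a count given without the share of all genes. The lowest were Rsad2 (72.6 and 58.9 CPM, -0.30, -0.53 to -0.08), Dhx58 (-0.24, -0.57 to 0.08) and Isg20 (-0.22, -0.37 to -0.06). Isg15 (344 and 384 CPM) and Bst2 (326 and 332 CPM) had the highest levels, followed by Irf7 (237 and 286 CPM). The summed level was higher in the library labelled Siah2-/- in all 4 depth bins, with log2 ratios from 0.15 to 0.43. In NK cells the macrophage markers came to 1.71 and 2.55 UMIs per 10000, the T cell markers to 0.33 and 0.68, the DC markers to 0.26 and 0.70 and the cycling markers to 3.62 and 2.02, and their part was not tested.

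In DC 26 members had at least 50 UMIs. Herc6 (54.0 and 93.5 CPM, 0.79, interval 0.24 to 1.37), Isg15 (697 and 1204 CPM, 0.79, 0.64 to 0.94), Ifit2 (48.6 and 82.2 CPM, 0.76, 0.17 to 1.37), Oasl2, Rtp4, Ifit3 and Slfn5 were higher past 1.5-fold, 7 in all, where 11.4% of 3659 genes were. Of these, Ifit3 and Rtp4 lay under their levels in empty droplets in both libraries and 2 in WT only. None was lower, where 8.53% were. Ifit1 (94.4 and 80.1 CPM, -0.24, -0.72 to 0.25), Usp18 (-0.23, -0.59 to 0.14) and Ifit3b (-0.18, -0.91 to 0.55) were lowest, each within counting error. Isg15, Irf7 (463 and 456 CPM) and Bst2 (387 and 425 CPM) had the highest levels. The class held 67 and 101 cells, with Xcr1, a marker of the cross-presenting kind, in 23.9% and 5.94% of them. The macrophage markers came to 1.87 and 3.29 UMIs per 10000 in DC, the T cell markers to 0.15 and 0.52 and the cycling markers to 2.72 and 0.80. The part of this makeup was not tested. Between 5000 and 10000 UMIs the summed level had a log2 ratio of -0.13 (-0.21 to -0.06), and at 10000 and over 0.71 (0.60 to 0.83). Between 2500 and 5000 UMIs, with 25 and 8 cells, it was 0.18 (-0.11 to 0.46), and from 1000 to 2500 UMIs 6 and 3 cells held 31 and 1 member UMIs. The direction in DC thus varied between depth bins. Over all these barcodes 3 members were higher past 1.5-fold and 3 lower, counts given without the share of all genes.

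The CD45-negative collagen-positive cells had the highest ratio of the summed level among the 6 classes, 0.54 on the log2 scale (0.52 to 0.56). Of 32 members compared, 13 were higher past 1.5-fold, where 8.93% of 10586 genes were, and 1 was lower, where 9.62% were. The median log2 ratio was 0.51, beside -0.01 over all genes, and 26 members were higher beyond counting error, where 16.6% of all genes were. Slfn1 had the highest ratio, 1.65 (1.03 to 2.24), from 67 and 38 UMIs, then Zbp1 with 77.1 and 160 CPM and 1.05 (0.91 to 1.19). Both lay under their levels in empty droplets, 114 and 129 CPM for Slfn1 and 304 and 324 CPM for Zbp1. Of the 13 called higher, 3 lay under that level in both libraries, 5 in WT only, and Ifit1, Ifit3, Ifit3b, Oasl2 and Stat2 above it in both. Stat2 had 39.6 and 76.6 CPM (0.95, interval 0.74 to 1.16), Parp14 34.8 and 66.6 CPM (0.94, 0.71 to 1.16) and Irf9 47.6 and 87.5 CPM (0.88, 0.68 to 1.07). Thus Stat2 and Irf9, the members that encode parts of ISGF3, were both higher. Ifit3 had 526 and 898 CPM (0.77, 0.71 to 0.83) and Ifit1 482 and 788 CPM (0.71, 0.65 to 0.77). Bst2 (1163 and 1498 CPM) and Isg15 (791 and 1082 CPM) were the most abundant, with log2 ratios of 0.36 (0.32 to 0.41) and 0.45 (0.40 to 0.50). Oasl1 was lower, with 26.4 and 16.2 CPM and -0.71 (-1.14 to -0.31), followed by Ifih1 at -0.08 (-0.31 to 0.14) and Mx1 at -0.06 (-0.45 to 0.31).

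Per cell, the median summed level of the CD45-negative cells was 25.1 per 10000 in WT, against 42.1 in the library labelled Siah2-/-, and the 10th percentiles were 7.28 and 17.2. The difference was thus not limited to the highest cells. Among the Hmga2-positive cells of the class, 509 and 92, the summed level was 45.9 (45.6 to 46.3) and 72.9 (71.8 to 74.0), and 18 members were higher past 1.5-fold, where 11.4% of genes were, and 1 was lower, where 11.7% were. Of the 18, 8 lay above their empty-droplet levels in both libraries. Over all barcodes of the class with at least 1000 UMIs, 843 and 225, the values were 42.7 and 55.0, a log2 ratio of 0.36 (0.35 to 0.38), and 7 members were higher past 1.5-fold. No share of all genes is given for these barcodes, so the 7 are not read against a background. The 6 macrophage markers summed to 1.29 and 2.25 UMIs per 10000 in these CD45-negative cells, the 3 T cell markers to 0.17 and 0.48 and the cycling markers to 4.01 and 1.84, and their part in the difference was not tested.

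**Figure D4:**
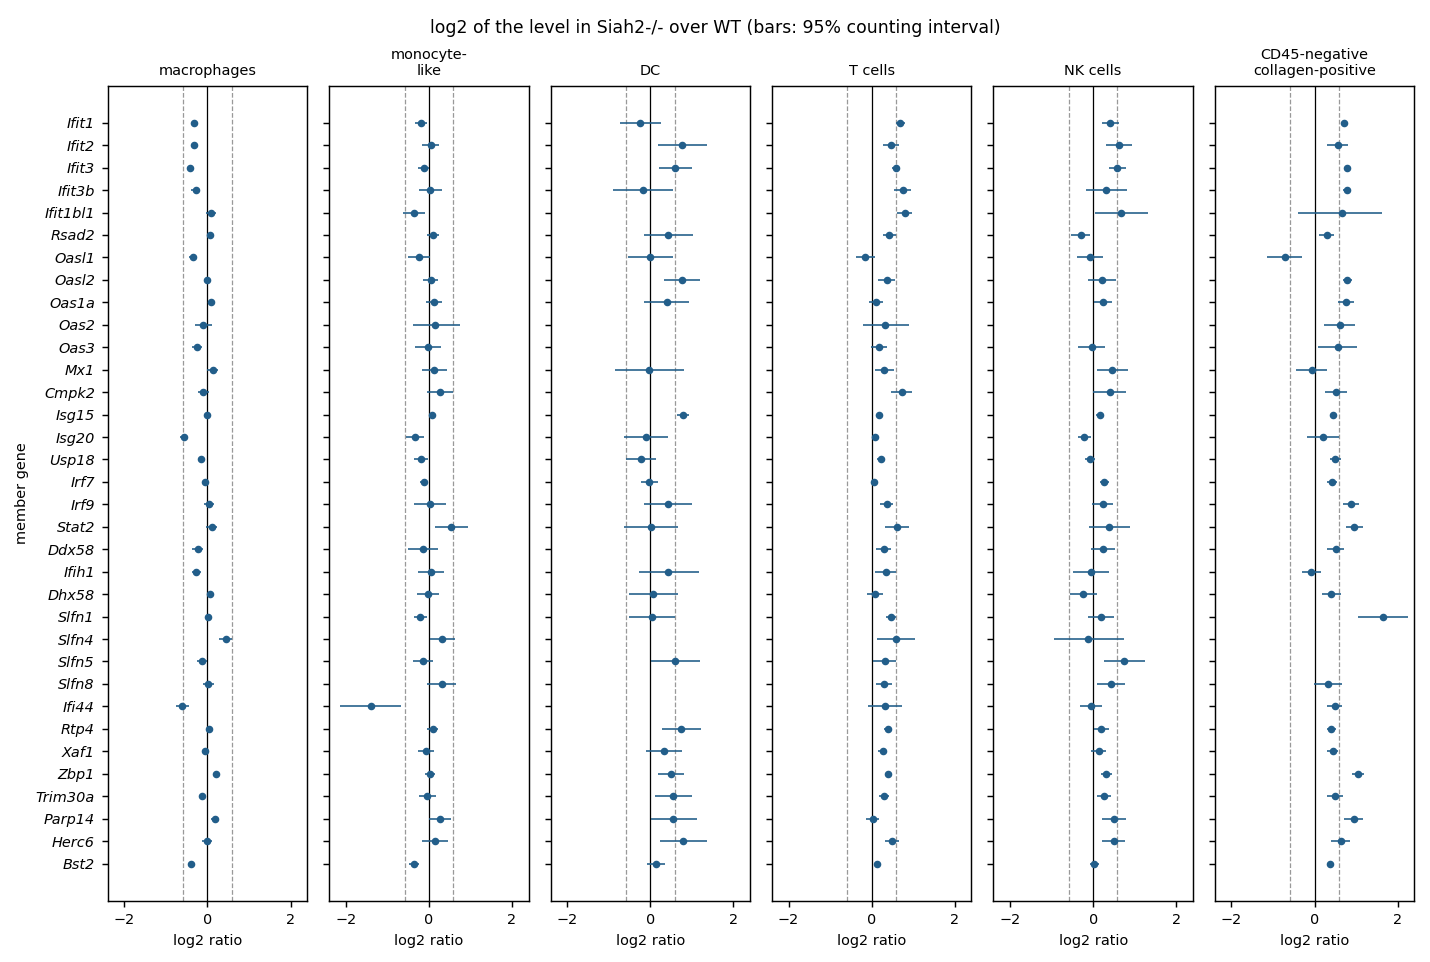
log2 ratio of the level in the library labelled Siah2-/- over WT for each member with at least 50 UMIs in the class, with its 95% counting interval; dashed lines mark 1.5-fold. Most points lie right of 0 in T cells, NK cells and CD45-negative collagen-positive cells, and close to 0 in macrophages as a whole.

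The share of cells with an Isg15 UMI went with its level in all classes but DC and monocyte-like cells. With each cell thinned to 2000 UMIs, Isg15 was detected in 63.2% (60.9 to 65.4) of WT macrophages and 62.6% (60.2 to 65.0) of those in the library labelled Siah2-/-. In the CD45-negative cells the shares were 48.8% (45.1 to 52.5) and 60.9% (52.1 to 69.2), in T cells 39.6% (36.03 to 43.19) and 45.6% (43.2 to 47.9) and in NK cells 27.0% (22.7 to 31.5) and 32.7% (29.2 to 36.4). Without thinning the NK shares were 53.4% and 60.2%. In DC the thinned shares were 62.7% (50.0 to 74.2) and 57.4% (47.2 to 67.2) and in monocyte-like cells 78.7% (71.0 to 85.2) and 75.3% (71.1 to 79.1), against the order of the CPM, so no order is read from them. Each class can express Isg15, so no class gives a background for these shares.

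The ligands were hardly detected. Of the 20 type I and type III interferon genes looked for, Ifnb1 had 13 UMIs in WT cells, against 4 in the library labelled Siah2-/-, Ifnz 2 and 2, Ifnab 1 and 0, Ifnl2 0 and 1, and the other 16 had 0 in both. A count of 0 allows up to 3 UMIs in a library. Over all barcodes with at least 1000 UMIs Ifnb1 had 15 and 13 UMIs, so no difference is read from its counts. Ifnb1, which encodes interferon beta, had 4 and 1 UMIs in macrophages and 5 and 0 in the CD45-negative cells. Ifng, which encodes interferon gamma, had 3893 and 9187 UMIs. In T cells it had 351 and 446 CPM (0.34, interval 0.28 to 0.41) and in NK cells 81.1 and 146 CPM (0.85, 0.67 to 1.03), beside 88.9 and 191 CPM in empty droplets.

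The other genes of the pathway were counted from lists, beside the same shares of all genes higher past 1.5-fold as above (7.5% in macrophages, 9.57% in monocyte-like cells, 11.4% in DC, 8.66% in T cells, 9.25% in NK cells and 8.93% in the CD45-negative cells). Of 6 receptor and signalling genes none passed 1.5-fold in macrophages, where Ifnar2 was highest (118 and 142 CPM, 0.28, interval 0.20 to 0.35) and Ifnar1 lowest (101 and 72.9 CPM, -0.48, -0.58 to -0.38). In the CD45-negative cells 2 were higher, Ifnar2 (28.7 and 56.4 CPM, 0.98, 0.73 to 1.22) and Tyk2, which encodes a kinase of the receptor. Tyk2 rested on 95 and 27 UMIs, at 5.05 and 7.93 CPM, and its log2 ratio of 0.65 lay within counting error (-0.02 to 1.28). Both lay under their levels in empty droplets, 53.1 and 61.2 CPM for Ifnar2 and 15.8 and 14.9 CPM for Tyk2. In NK cells Ifngr1 (0.70, 0.63 to 0.78) and Ifngr2, the chains of the interferon gamma receptor, were higher, Ifngr2 under its empty-droplet level, and in DC Ifnar2 was (0.84, 0.25 to 1.45). Of the inducers, the genes upstream of interferon, 0 of 11 passed the fold in macrophages, with Ikbke, a kinase, at 0.48 (0.30 to 0.66) and Tlr7, an RNA sensor, at -0.53 (-0.74 to -0.33). Elsewhere 1 inducer was higher in monocyte-like cells (Tlr7), 1 in NK cells (Tbk1, a kinase) and 2 in the CD45-negative cells (Ticam1 and Irf5). Mb21d1, which encodes the DNA sensor cGAS, was lower in T cells, where 7.16% of genes were, and the CD45-negative cells, where 9.62% were. In the CD45-negative cells Irf5 (4.94 and 9.69 CPM) and Mb21d1 (161 and 12 UMIs) lay under their empty-droplet levels in both libraries. Ticam1 lay within counting error there (0.59, -0.08 to 1.22). The 5 inhibitors also had none past it, with Socs1, which blocks the receptor's kinases, at 0.52 (0.42 to 0.62) and Pias1 at -0.30 (-0.48 to -0.12). Elsewhere 2 inhibitors were higher in monocyte-like cells, where Socs1 was at 0.89 (0.63 to 1.16), 2 in the CD45-negative cells (Socs1 and Ptpn6, a phosphatase) and 1 each in DC, T cells and NK cells. Socs3, of the same family as Socs1, was higher in monocyte-like cells (277 and 637 CPM, 1.20, 1.03 to 1.38), DC (1.70, 1.32 to 2.09), T cells (1.14, 0.96 to 1.32) and NK cells (1.32, 1.08 to 1.57). In empty droplets Socs3 had 145 and 198 CPM, above its levels in T cells (39.2 and 86.4 CPM) and NK cells (42.2 and 105 CPM), and Socs1 and Ptpn6 in the CD45-negative cells also lay under their empty-droplet levels in both libraries. Socs3 in DC lay under its empty-droplet level in WT only (95.8 and 311 CPM).

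Of 25 further type I interferon induced genes, 0 passed the fold in macrophages, with a median of -0.17, Samd9l highest at 0.43 (0.06 to 0.80) and Tor3a lowest at -0.57 (-0.64 to -0.49). In the CD45-negative cells 7 of 25 were higher, with a median of 0.47 and 4 of them under their empty-droplet levels in both libraries, and in T cells 0 of 25, with a median of 0.15. In DC 3 of 22 were higher and 2 lower (Ly6e and Epsti1), where 8.53% of genes were lower, with a median of 0.14. In NK cells 3 of 24 were higher, all under their empty-droplet levels in both libraries, with a median of 0.07. Over all genes the median was -0.03 in DC and 0.06 in NK cells. In these 5 classes the medians lay on the same side of 0 as those of the members, whereas in monocyte-like cells the median was -0.09, against 0.02 for the members. Of 8 genes led by interferon gamma, 2 were higher in macrophages, with a median of 0.52, and 4 were higher in T cells, with a median of 0.54. In the CD45-negative cells 4 of the 5 compared were higher, with a median of 0.77, and in NK cells 0 of 5 were, with a median of -0.07. In monocyte-like cells 3 of 8 were higher (Irf1, Nos2 and Socs1), with a median of 0.11 and Cxcl9 lowest at -0.46 (-0.60 to -0.32). In DC 2 of 5 were higher (Irf1 and Cxcl9), with a median of 0.22. All 4 called in T cells (Irf1, Nos2, Batf2 and Irg1), and Cxcl9, Socs1 and Fcgr1 of the 4 in the CD45-negative cells, lay under their empty-droplet levels in both libraries. In macrophages the 2 called were Nos2, with 3.29 and 33.4 CPM (3.35, interval 2.99 to 3.73), and Irg1, with 49.0 and 85.2 CPM (0.80, 0.68 to 0.91). Irf1, with 104 and 150 CPM (0.53, 0.44 to 0.61), did not pass the fold, and Fcgr1 was lowest at -0.07 (-0.10 to -0.03).

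Some members share sequence with a relative. Of the 31-base words in the last 400 bases of their GENCODE M21 transcripts, Oas1a shared 61.9% with Oas1g, Slfn8 32.8% with Slfn10-ps, Ifit3 30.5% with Ifit3b and Ifit1bl1 25.9% with Ifit1bl2. Oas3 shared 17.8% and Isg15 12.7% with other genes. The counts of these genes are uncertain to that extent. Irf9, Rtp4, Parp14 and Herc6 overlap another gene on the same strand in this annotation, and reads in the overlap cannot be assigned to either with certainty.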

How the data were processed

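Raw UMI counts per gene and barcode were used as the authors deposited them, as 1 matrix per library of 27998 genes, made per the labels with bcl2fastq and Cell Ranger (versions not given in the sources used here) on mm10/GRCm38. The authors also deposited a raw count table of 14654 genes and a natural log normalized table, used here only for its cell names, which gave 4512 and 5563 cells. The table and the matrices differed in 1906 and 1850 values, 0 of them of the members. No doublet caller was run; cells with macrophage and lymphocyte markers (315 and 321) were kept apart.

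Classes were gated on marker UMIs per 10000 UMIs of a cell, with at least 2 marker UMIs (macrophages 25, T cells 5, NK cells 4, monocyte-like 12, DC 5, collagen genes 5, Ptprc under 0.5). Macrophage states went to the highest of 3 standardized marker sums at 0.5 or over, with cycling at 4. A macrophage state and some genes are not reported here. Summed UMIs were divided by the class total. With 1 library per genotype there was no test and no p-value. Levels have exact Poisson intervals, ratios exact conditional binomial intervals and shares of cells Clopper-Pearson intervals, all at 95% and for counting error only. A ratio was called past 1.5-fold with at least 50 UMIs over both libraries, and a count of 0 allows 3 UMIs. For detection shares and correlations each cell was thinned to 2000 UMIs. The scripts, in Python 3.11.15 with numpy 2.4.6, scipy 1.17.1, pandas 2.3.3 and matplotlib 3.10.9, were tested on simulated data. The alternatives varied scaling, depth, gates, free RNA, thresholds and weighting.

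The members and lists were chosen with earlier results of these data known. Named in full in each class were the 3 members with the highest and the 3 with the lowest log2 ratio, the 3 with the highest CPM, each ligand with a UMI, and the highest and lowest gene of each other list in macrophages. Other genes with values were named for their role or after their values were seen.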

Additional observations from a re-analysis of the deposited data

Results flagged for a closer look

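The ratio between the libraries varied among cell classes, and the differences between classes were not tested. Listed first are the ratios of the summed level at least 0.25 from 0 and beyond counting error, beside -0.10 in macrophages as a whole. The log2 ratio of the summed level, Siah2-/- over WT, was 0.2788 in cycling macrophages. It was 0.3858 in DC, 0.2853 in T cells and 0.3922 in CD8 T cells. In the CD45-negative collagen-positive cells it was 0.5405, and 0.6669 in those with Hmga2. NK cells (0.16), other T cells (0.05), resident-like macrophages (0.02) and Tregs (-0.02) lay closer to 0.

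Barcodes below the depth of the cells analysed also carried the members. T cell barcodes with 1000 to 2500 UMIs had 71.8 member UMIs per 10000 in WT, against 61.3 in the library labelled Siah2-/-, above the 49.8 and 48.2 of empty droplets. Those with 2500 to 5000 UMIs had 66.07 and 63.21.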

How the results depend on the processing

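No paired analysis was possible because each genotype has 1 library. Values are the log2 ratio of the summed level and counts of members past 1.5-fold. The share of all genes is not given beside these counts, so they are not read against a background. The cause of each shift was not tested. With median-of-ratios scaling the ratio was -0.0596 in macrophages (0 lower), 0.0142 in monocyte-like cells, 0.31 in T cells and 0.10 in NK cells. With the same lowest UMI count in both libraries it was -0.15 in macrophages, -0.0936 in monocyte-like cells, 0.14 in T cells (1 higher) and 0.10 in NK cells, and 1 member was lower in DC. Over all barcodes with at least 1000 UMIs it was -0.16 in macrophages (2 lower), -0.23 in monocyte-like cells (3 lower), 0.14 in DC (3 higher, 3 lower), -0.0228 in T cells (1 higher, median 0.0394) and 0.36 in CD45-negative cells (7 higher), and 1 member was higher in NK cells. With marker thresholds doubled it was -0.21 in monocyte-like cells (2 lower), 0.24 in DC (4 higher, 3 lower), 0.31 in T cells, 0.21 in NK cells (5 higher) and 0.44 in CD45-negative cells, and 2 members were lower in macrophages. With free RNA subtracted it was 0.31 in T cells and 0.57 in CD45-negative cells, and 1 member was lower in NK cells. Without the 5% deepest cells it was -0.12 in macrophages, 0.36 in T cells and 0.48 in CD45-negative cells (3 lower). Without the 1% of cells highest in the members it was 0.31 in T cells and 0.21 in NK cells, and 2 members were lower in macrophages, 2 in monocyte-like cells and 0 in CD45-negative cells. Without the 5 members with the most UMIs it was -0.12 in macrophages and 0.39 in T cells. At a 2-fold threshold 0 members were lower in macrophages or CD45-negative cells, 0 higher in DC, T cells or NK cells, and 2 higher in CD45-negative cells. Weighting each macrophage state or T cell kind equally, chosen after seeing the data, gave -0.0785 in macrophages and 0.10 in T cells. The share of DC with an Isg15 UMI, lower in the library labelled Siah2-/- at 2000 UMIs, was higher there by 2.25 percentage points at 1000 UMIs. The deposited table of raw counts moved none of the 24 main values. DC (67 and 101 cells) are the class with the fewest cells.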
